A study of Rattus norvegicus with 10 samples.

Results

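N6-methyladenosine (m6A) peaks of hypertrophic rat cardiomyocytes, called against an IgG control, are described here as 1 list. All rows of the deposited hypertrophic peak list were taken, each with the summit of the same name. They are 65539 of the 133979 peaks that the series holds. All 65539 had exactly 1 summit, and every summit lay inside its peak. The cells were primary heart muscle cells of newborn rats, 1 to 3 days old, and the hypertrophic group was kept in M199 medium with 2% bovine serum. The list sets m6A immunoprecipitates of these cells (2 libraries) against immunoprecipitates with normal IgG, also from hypertrophic cells (2 libraries). The other 6 of the 10 libraries, which are the input RNA of both conditions and the immunoprecipitates of serum-free cells, are not used. The list does not show whether it rests on both m6A libraries or on 1 of them. No value below therefore has a replicate error, and intervals cover counting error within the list only.

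m6A is a methyl mark that a writer complex containing METTL3 and METTL14 places on adenosines of messenger RNA, which demethylases such as FTO and ALKBH5 can remove and YTH-domain proteins read. In mammals it is known to be enriched near stop codons, in 3′ untranslated regions and in long internal exons. In m6A immunoprecipitation sequencing (MeRIP-seq), RNA fragments bound by an antibody against m6A are sequenced. A peak caller then marks stretches of the genome where these reads exceed those of a control. Cultured newborn cardiomyocytes no longer divide readily and enlarge when given serum, which is a common model of hypertrophic growth of the heart.

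Each peak has a position on build rn4, a width, a score and a summit height. The score follows the output of the peak caller MACS 1.4, where it grows with the negative logarithm of the p-value of a peak, so it measures contrast with the control. The summit height is the read pileup at the highest base of the peak, in whole numbers with no scaling stated, and says nothing of the control. The files give neither gene names nor strand, and no annotation of rn4 was at hand, so regions are named by position and not by transcript. The cell type could not be checked against marker genes for the same reason. Library sizes are not given in the sources used here, and the summit height is the only measure of depth at a peak.

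Most hypertrophic peaks were low and narrow, and a small number were very tall or broad. The summit height had a median of 18, quartiles of 11 and 39, and a range of 5 to 164. A height under 10 was found for 19.2% of the peaks, while 4143 peaks (6.32%) reached 100 or more. Widths ran from 90 to 27589 bp, and 1 in 10 peaks was at most 185 bp wide. The widest 10% of the peaks held 29.7% of the 29.9 Mb covered, and the 703 peaks wider than 2000 bp held 6.44% of it. Scores below 100 belonged to 41.4% of the peaks. The lowest score was 50, and 462 peaks shared a score of exactly 3100, so peaks at 3100 have no order among themselves. Another 55 peaks scored above 3100, up to 3233. The list does not show whether these are stronger than the 462.

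The numbers of the tallest summits did not tail off. In classes of 10 units, numbers fell from 22265 peaks with heights of 10 to 19 to 899 with heights of 100 to 109. In classes of 5 units they fell further, from 476 at 100 to 104 to 262 at 135 to 139. From there they were nearly level, with 249 peaks at heights of 140 to 144, 259 at 145 to 149, 230 at 150 to 154, 235 at 155 to 159 and 255 at 160 to 164. The list ended abruptly at 164, a height shared by 76 peaks. The 76 peaks at 164 therefore have no order among themselves by height. Whether heights just below 164 also order peaks poorly was not tested.

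Score, height and width rose together across the list, but loosely. Spearman's rank correlation was 0.65 between score and height, 0.58 between score and width, and 0.58 between width and height, each over 65539 peaks. These are descriptions, because all 3 measures come from the same reads and neighbouring peaks may lie on 1 transcript. The median score was 55.9 at heights of 5 to 7, 97.9 at 10 to 14, 236.1 at 30 to 49 and 428.0 at 100 to 129. It reached 469.3 at heights of 130 to 149, and was lower again, at 372.1, among the 720 peaks with heights of 150 to 164.

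The spread of scores at a given height widened far more than the lower quartile rose. At heights of 10 to 14 the quartiles of the score were 73.6 and 131.1. At 130 to 149 they were 183.3 and 1108, so that the upper quartile was 8.45 times and the lower one 2.49 times that of the shorter class. Tall pileups thus included both very high and quite ordinary scores. Of the 670 peaks in the top 1% of heights (151 or more), 100 scored below 100, a smaller share than the 41.4% of the whole list. Of 26658 peaks with heights under 15, 17 scored 500 or more. In the whole list, scores of 500 up to 1000 alone made up 7.18% of the peaks, and the 90th percentile was 598.7. The cuts are unlike, so these counts do not show which case is rarer.

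**Figure D1:**
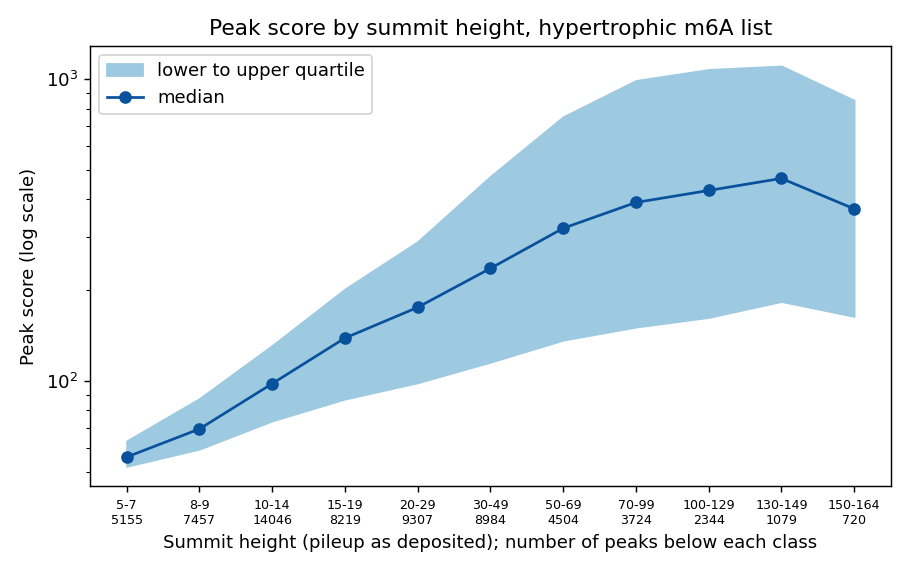
Peak score (log axis) by class of summit height, with the median as points and the lower to upper quartile as a band; the number of peaks stands under each class. The median rises from 55.9 to 469.3 and is 372.1 in the tallest class, while the band widens with height.

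The relation between score and height depended on the width of the peak. Among peaks of up to 250 bp, the rank correlation was 0.68 (18418 peaks). It was 0.57 from 250 to 350 bp, 0.42 from 350 to 500 bp and 0.32 from 500 to 1000 bp. For the 3841 peaks of 1000 to 2000 bp it was 0.04, and for the 703 wider ones it was -0.12. In broad peaks, then, height and score hardly ranked the same peaks high. The relation between score and width weakened likewise with height, from 0.42 at heights of 5 to 9 to 0.15 at heights of 130 to 164.

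Broad peaks were nevertheless tall and high-scoring as a class. The median height was 11 in peaks of up to 250 bp, 20 from 350 to 500 bp, 84 from 1000 to 2000 bp and 118 above 2000 bp. The median score rose from 73.6 in the narrowest class to 152.8, 479.0 and 743.8 in the same wider classes. A score of 3100 or more was found for 0 of the 18418 narrowest peaks and for 65 of the 703 widest (9.25%). Of the peaks of up to 250 bp, 65.7% had a height under 15 (Wilson interval 65.1 to 66.4%).

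The peak with the highest score was taken on each of the 21 chromosomes. Only 55 peaks of the list scored above 3100, beside the 462 at exactly that value, so these 21 are not ranked over the others at 3100. Of the 21, 18 scored above 3100, which need not make them stronger than peaks at exactly 3100. The other 3, on chromosomes 4, 15 and X, scored exactly 3100, with ties broken by height, so their heights were chosen to be tall. Heights of the 21 ran from 48 to 161 with a median of 94, and 8 of them reached 100. Their widths ran from 580 to 2037 bp with a median of 1056 bp, against 340 bp for the whole list. All 517 peaks with scores of 3100 or more had a median width of 1011 bp and a median height of 106. Large width is therefore not particular to these 21. The summit lay between 33.3% and 66.7% of the way along the peak in 14 of the 21, and 5 had another peak within 1000 bp.

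Several of these peaks differed sharply in pileup at nearly the same score. The peak at chr9:59703537-59704794 had a score of 3216 at a height of only 48, and its nearest neighbour lay 78558 bp away. The peak at chr7:32471774-32472626 scored 3212 at a height of 159, with a neighbour 146 bp away. Both are about as strong by score, but the second had over 3 times the pileup. At chr5:102117855-102118946 and at chr14:79708985-79709992 the height was 50, with scores of 3180 and 3196. At chr4:25745454-25746629 the height was 161 and the score 3100, and at chrX:50760802-50762023 the height was 148 and the score 3100. The narrowest of the 21, at chr11:83271946-83272525, was 580 bp wide, scored 3169 and reached a height of 56. The broadest, at chr8:20971509-20973545, was 2037 bp wide and had its summit 27.1% of the way along.

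Further chromosome leaders filled the range between these. The peak at chr3:157538598-157539823 scored 3225 at a height of 67, with its summit at 50.5% of the width. The peak at chr12:27367551-27368606 scored 3224 at a height of 95 and had a neighbour 267 bp away. The peak at chr16:70737953-70738706 scored 3219 at a height of 103, and the one at chr17:83538821-83539963 scored 3203 at a height of 89. The lowest height among the 21, 48, was above the upper quartile of the whole list, 39. It was below 64.6, the 10th percentile of height among the 517 peaks that scored 3100 or more.

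The peaks at the far corners of the list make the looseness between height and score concrete. At chr6:79765299-79767003 the summit reached the largest height of 164, yet the score was 50.6, just above the lowest in the list. At chr1:214549344-214550737 the height was also 164 and the score 50.8. At chr19:26159407-26161814 the height was 157 and the score 51.0. At the other corner, the peak at chr7:116741043-116742617 scored 1204 with a height of 14. Scores of 1192 and 1181 went with a height of 14 at chr5:80538806-80540446 and chr6:2879356-2881572. These 3 low, high-scoring peaks were broad, from 1575 to 2217 bp, and their summits lay between 15.3 and 19.6% of the way along. What the control pileup was at these sites is not in the files.

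Among the 76 summits at 164 ties were broken by score, so the 3 named here were bound to score high, while the peaks on chromosomes 6 and 1 just described also reach 164. The rule picked chr10:62718961-62720308, 1348 bp wide, and 2 neighbours on chromosome 2. Those neighbours, chr2:219969822-219975504 and chr2:219976538-219981815, were 5683 and 5278 bp wide and only 1033 bp apart, and all 3 scored 3100. The widest peak of the list, chrX:81828797-81856385, spanned 27589 bp, scored 486.5 and had a height of 82. Its summit lay 516 bp from its lower end, or 1.87% of the way along. The next widest were chr15:40331725-40344583 with 12859 bp and chr18:26783675-26790829 with 7155 bp, with heights of 136 and 147 and summits at 57.4% and 53.8% of the width.

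Summits lay near the centre of narrow peaks and almost anywhere in broad ones. Over all peaks, 66.9% of the summits fell between 33.3% and 66.7% of the way along the peak (Wilson interval 66.5 to 67.2%). The share in this central stretch was 81.5% in peaks of up to 250 bp, 56.9% from 500 to 1000 bp, 43.9% from 1000 to 2000 bp and 37.8% above 2000 bp (Wilson interval 34.3 to 41.5%). An even spread along the peak would put 33.3% there, and the widest class came nearest to that. Summits within 20% of the width from either end were 0.0814% of the narrowest class, 11.3% from 500 to 1000 bp and 34.3% above 2000 bp.

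The distance from the summit to the nearer end of the peak had a floor. It was never under 43 bp, and in 16520 peaks (25.2%) it was 70 to 89 bp. The most frequent distances were 80 bp to the lower end, in 1419 peaks, and 81 bp to the upper end, in 1244 peaks. In the narrowest class the median distance to the nearer end was 77 bp, with quartiles of 70 and 81 bp. A narrow peak therefore has little room for an off-centre summit. The median distance rose to 228 bp in peaks of 500 to 1000 bp and 705 bp above 2000 bp.

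Summits leaned little to either side apart from an offset of 1 or 2 bp. They lay nearer the lower coordinate in 53.8% of all peaks, and in 62.4% of those of up to 250 bp. In that class 4372 of 18418 summits (23.7%) sat 1 or 2 bp nearer the lower end, in effect the centre. Leaving out all summits whose distances to the ends differed by at most 2 bp, 38.5% of the narrow peaks leaned to the lower end and 36.8% to the upper. Between 350 and 2000 bp the share nearer the lower end was 50.2 to 50.4%. Peaks of both strands are mixed in these counts, since the files give no strand.

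**Figure D2:**
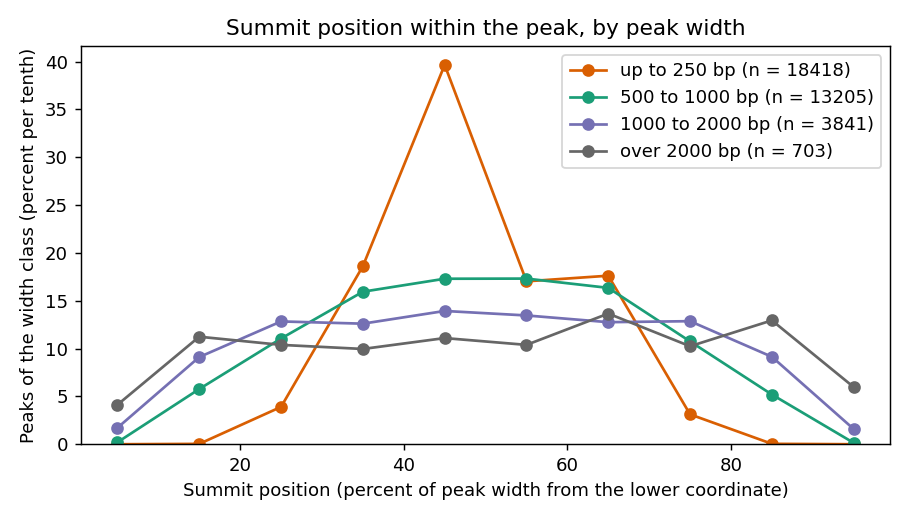
Position of the summit along the peak, as a percentage of the width from the lower coordinate, in steps of 10%, for 4 classes of width; each line adds to 100% of its class. The line for peaks of up to 250 bp stands at 39.6% in the step just below the centre, while that for peaks over 2000 bp runs between 9.96% and 13.7% except at the ends, where it is 4.13% and 5.97%.

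Hypertrophic peaks came in dense stretches separated by long empty ones. The 65518 neighbouring pairs had a median gap, from edge to edge, of 12742 bp, with quartiles of 3406 and 37681 bp. The mean gap was 40973 bp, over 3 times the median. Gaps ran from 1 bp to 2249913 bp, and no peaks overlapped. Gaps of at most 100 bp separated 1804 pairs (2.75%), and gaps of at most 10 bp 213 pairs. Summits were never closer than 149 bp. Each peak has 1 summit of its own inside it, so neighbours have distinct summits by construction.

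Of all peaks, 22.1% had another within 1000 bp (Wilson interval 21.8 to 22.4%) and 49.8% had one within 5000 bp (interval 49.4 to 50.2%). At the other extreme, 1999 peaks (3.05%) had none within 100000 bp. These isolated peaks were small, with a median width of 230 bp, a median height of 14 and a median score of 93.2. Only 1.95% of them reached a height of 100 (Wilson interval 1.43 to 2.66%). With a neighbour 500 to 1000 bp away, the medians were 368 bp, 21 and 132.3, and 8.26% reached a height of 100 (interval 7.52 to 9.08%). Peaks with a neighbour within 50 bp were the widest, with a median of 409.5 bp, but their median height was 16.

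Neighbouring peaks resembled each other in height, and the resemblance reached a few kilobases. For gaps of at most 50 bp, the heights of neighbours had a Spearman's rank correlation of 0.55 (988 pairs). It was 0.43 for gaps of 500 to 1000 bp (2808 pairs), 0.41 for 1000 to 2000 bp (4007 pairs) and 0.32 for 2000 to 5000 bp (8291 pairs). From 5000 to 10000 bp it was 0.14 (8832 pairs), and beyond 100000 bp it was 0.0027 (6108 pairs). The steepest drop was thus between the classes on either side of 5000 bp. Heights of neighbours within 50 bp were within 2-fold of each other in 65.6% of the pairs (Wilson interval 62.6 to 68.5%), in 47.4% for gaps of 5000 to 10000 bp (interval 46.3 to 48.4%) and in 51.7% beyond 100000 bp.

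Scores of the same neighbours were hardly alike. The rank correlation between scores was 0.19 for gaps of at most 50 bp, 0.07 for 500 to 1000 bp and 0.02 for 5000 to 10000 bp. Within 50 bp 46.1% of the pairs had scores within 2-fold of each other, a share of the same size as the 42.3 to 49.5% in the other classes up to 100000 bp, and it was 55.8% beyond that. Widths stood in between, with a rank correlation of 0.38 within 50 bp and 0.08 from 5000 to 10000 bp. The ratio of score to height was more alike between neighbours than the score itself, with a rank correlation of 0.35 for gaps of 500 to 1000 bp. The ratio contains the height, which correlated at 0.43 in the same pairs. Part of the likeness of the ratio may therefore be built in. These values are over pairs of 1 list, which share libraries and may share a transcript, and a peak can enter as a member of 2 pairs. With both heights below 100, the rank correlation between heights was 0.47 within 50 bp and 0.10 from 5000 to 10000 bp.

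**Figure D3:**
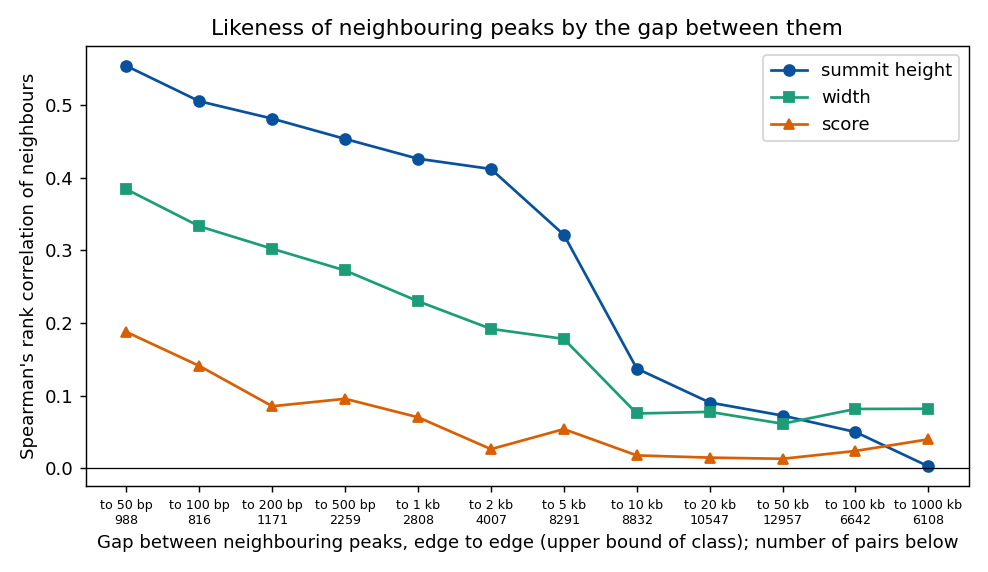
Spearman's rank correlation between neighbouring peaks for summit height, width and score, by class of the gap between them, with the number of pairs under each class. Height stands at 0.55 for the shortest gaps, is 0.32 from 2000 to 5000 bp and 0.14 from 5000 to 10000 bp, while score stays at 0.19 or less throughout.

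Joining peaks with gaps of at most 1000 bp gave 6453 chains of 2 or more peaks, which held 14495 peaks. Most were pairs, 5280 in number, with a median span of 1272 bp. There were 904 chains of 3, 181 of 4 and 88 of 5 or more. Within chains, the tallest summit was a median of 1.90 times the shortest, with quartiles of 1.33 and 3.07. The tallest summit of a chain had a median of 31 in pairs, 50 in chains of 4, 45 in chains of 5 and 42 in longer ones. The median over all members was 20, 21, 15 and 16 in the same classes. A chain with more peaks offers more summits to pick the tallest from.

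The chain with the most peaks held 17 on chromosome X, at chrX:13531441-13548358, over 16918 bp of which 57.8% was covered. Its summits lay between 7 and 30 with a median of 13, all below the upper quartile of the whole list, 39. Its scores ran from 60.7 to 446.5. The 3 tallest summits, of 28, 30 and 30, belonged to the fifth, eighth and twelfth peaks, which were 922, 931 and 826 bp wide. The other peaks up to the twelfth were 231 to 673 bp wide with heights of 7 to 18. Width and height did not always go together along the chain. The third peak was 346 bp wide at a height of 18, and the tenth 673 bp at a height of 9. The fourteenth peak was the widest, 1217 bp, at a height of 19. The fifteenth was 790 bp wide at a height of 10, and the last was 978 bp wide at a height of 24. With gaps of up to 5000 bp allowed, this stretch extended to 36 peaks, and no summit in it was above 30.

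The next chain by number of peaks, at chr1:33127032-33136339, held 10 peaks, and several distances between its summits recurred. Their heights, in order along the chromosome, were 9, 13, 9, 9, 9, 13, 9, 13, 8 and 10. Distances between successive summits were 1051, 1310, 612, 1153, 1046, 1115, 1051, 1113 and 620 bp. From each summit to the next but one, 3 successive distances were 2161, 2166 and 2164 bp. All but 1 of the 10 scored below 100, against a median of 119.8 in the whole list. The exception scored 246.4, close to the upper quartile of the whole list, 253.0. Allowing gaps of 5000 bp extended it to 16 peaks from chr1:33120930-33144557, with heights of 8 to 13 throughout.

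**Figure D4:**
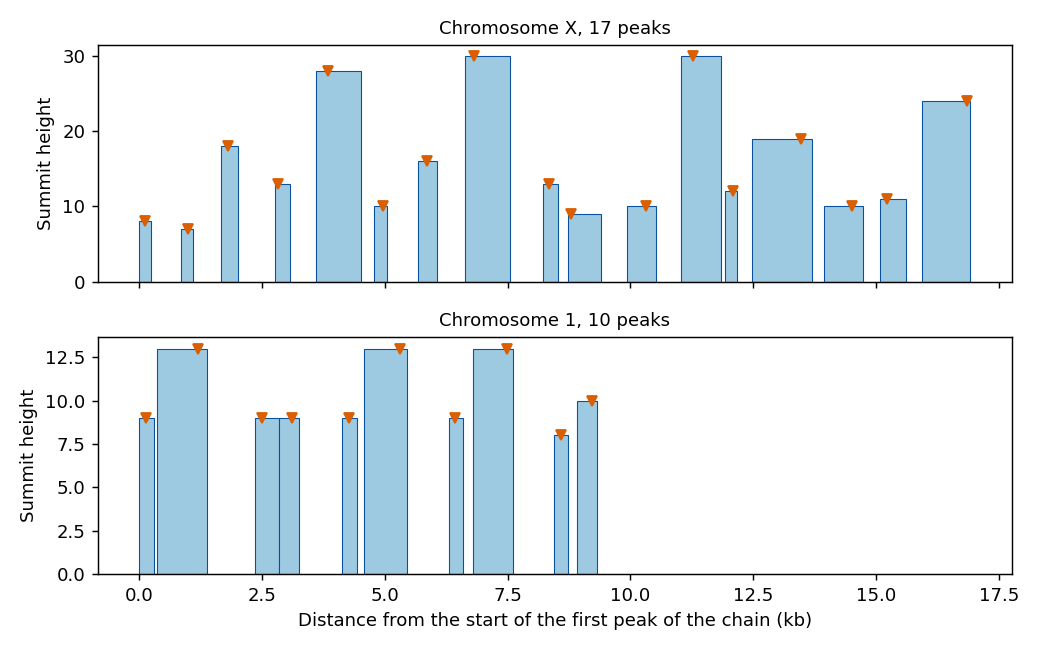
The chains of 17 peaks on chromosome X and 10 peaks on chromosome 1, drawn to scale from the start of the first peak (kb). Each bar spans a peak and is as tall as its summit height, and a triangle marks the summit; heights run from 7 to 30 in the first chain and from 8 to 13 in the second.

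The other 3 of the 5 chains with the most peaks held 8 peaks each and were unlike one another. At chr2:51957969-51964771 heights ran from 8 to 56 and scores from 51.8 to 1536. At chr6:2877806-2884776 heights stayed between 9 and 14 while scores ran from 89.8 to 1181. This is the chain that holds the low, high-scoring peak on chromosome 6 described above. At chr19:52506412-52515425 heights were the greatest of the 5 chains, from 20 to 84 with a median of 52, yet 4 of the 8 peaks scored below 100. The last 2 chains were nearly continuous, with 89.6% and 86.8% of their spans covered by peaks.

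On the scale of megabases the peaks were also unevenly spread. The 2706 windows of 1 Mb with at least 1 peak held a mean of 24.2 and a median of 21, and the variance of their counts was 13.8 times the mean. The densest 10% of windows (271, each with 51 or more peaks) held 24.9% of all peaks (Wilson interval 24.6 to 25.2%). The interval takes peaks as independent and windows as fixed beforehand. These windows were picked by the same counts and peaks cluster, so it does not measure the error of the share. At the sparse end, 300 windows with 1 to 3 peaks held 647 in all. Adjacent windows had similar counts, with a rank correlation of 0.51 over 2662 adjacent pairs.

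Peaks in dense windows were larger than those in sparse ones. In windows with 1 to 3 peaks, the median width was 212 bp, the median height 14 and the median score 90.8. In windows with more than 50 peaks these were 367 bp, 20 and 130.7. A height of 100 was reached by 1.85% of the peaks in the sparsest windows (Wilson interval 1.06 to 3.21%) and by 6.91% in the densest (interval 6.53 to 7.31%). The share was already 6.05% in windows of 21 to 30 peaks and 7.05% from 31 to 50, so it levelled off above that.

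The 5 densest windows were dense in different ways. The window from 8000001 to 9000000 on chromosome 17 held the most, 121 peaks, with a median height of 35 and 16 summits of 100 or more. Its peaks were spread over 9 of the 10 blocks of 100 kb, none with more than 18 peaks. The window from 30000001 to 31000000 on chromosome 18 held 117 peaks, of which 41 lay in a single block of 100 kb from 30600001. Its median height was 26, but only 5 of its summits reached 100. Of these 117, 76.9% had a neighbour within 1000 bp, against 47.1% in the chromosome 17 window, and 7.97% of the window was covered by peaks.

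The first window of chromosome 2, from 1 to 1000000, held 110 peaks with a median height of 16.5 and no summit of 100 or more. The window from 121000001 on chromosome 8 held 109 with a median height of 21 and 12 summits of 100 or more. The window from 27000001 on chromosome 16 held 95 with a median height of only 14, below the 18 of the whole list, and its tallest summit was 72. The median height thus lay above that of the whole list in the windows on chromosomes 17, 18 and 8 and below it in those on chromosomes 2 and 16.

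Peak density by chromosome ran from 44.0 peaks per Mb on chromosome 12 to 11.6 on X, measured from the first to the last peak, a ratio of 3.80. Chromosomes 20, 19 and 10 followed chromosome 12 closely together, with 33.0, 32.9 and 32.6. Among the autosomes chromosome 15 was the sparsest, with 19.0. Peaks on X were also the smallest, with the lowest median width (299.5 bp), height (16) and score (108.1) of the 21 chromosomes. On the autosomes the median width was 330 to 363 bp and the median height 17 to 20. X nevertheless had a usual share of peaks with a neighbour within 1000 bp, 22.6%, against 22.1% over the whole list.

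The ends of the chromosomes often differed from each other in density. Over all chromosomes the first and last 5 Mb held 28.8 peaks per Mb and 9.22% of the peaks, against 23.8 per Mb in the rest. In 12 of the 21 chromosomes the densities of the ends differed at least 2-fold. On chromosomes 16 to 20 both ends combined were sparser than the rest, with ratios from 0.699 to 0.861. In 4 (chromosomes 1, 3, 7 and 15) each end was denser than the rest. In the other 17 only 1 end was, by a strict count that includes near ties such as the first 5 Mb of chromosome 10, with 31.6 against 31.8 in the rest. Chromosome 18 had 31.8 peaks per Mb in its first 5 Mb, 25.8 in between and 4.20 in its last 5 Mb. Chromosome 13 ran the other way, with 5.80 in the first, 22.6 in between and 40.2 in the last. The highest value at any end was 62.2, in the last 5 Mb of chromosome 12. This comparison was chosen after the densities had been seen.

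**Figure D5:**
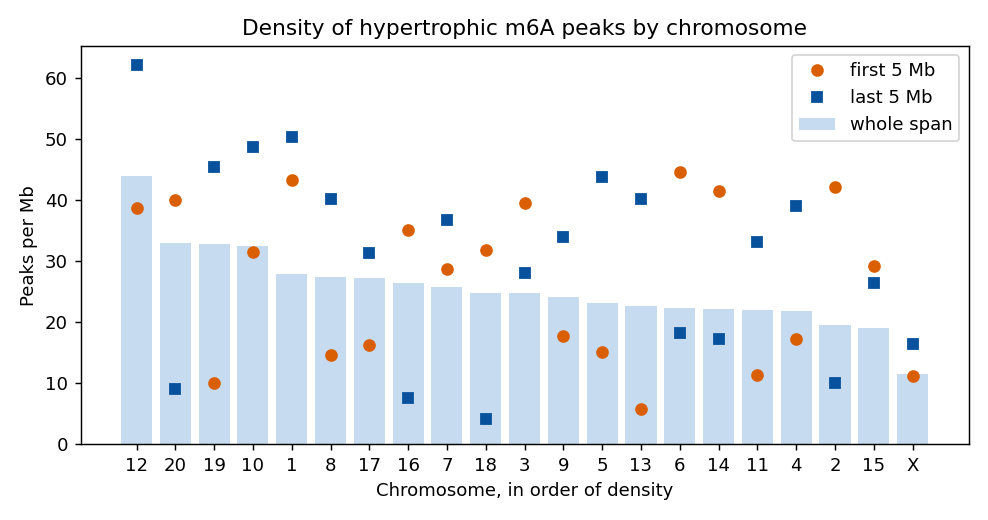
Peaks per Mb on each chromosome over the whole span (bars), in the first 5 Mb (circles) and in the last 5 Mb (squares), with chromosomes in order of overall density. Bars fall from 44.0 on chromosome 12 to 11.6 on X, and circles and squares lie far apart on chromosomes such as 13 and 18.

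The longest stretches without a peak were about 2 Mb long. They lay at chr4:88436644-90686556 (2249913 bp), chrX:105747379-107877510 (2130132 bp), chr7:107034535-109143705 (2109171 bp), chr17:43185922-45291810 (2105889 bp) and chr14:52161868-54178108 (2016241 bp). Of the 92 gaps longer than 1 Mb, 18 were on X, which spans 160.5 Mb, and 15 on chromosome 2, which spans 258.1 Mb. Chromosome 1, with a span of 267.6 Mb, had 5. An empty stretch means that no peak passed the authors' threshold there; it does not tell unmethylated from unexpressed sequence or from sequence to which reads could not be mapped.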

How the data were processed

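For the lists the authors deposited, the submitters' processing notes name MACS 1.4, TopHat, CASAVA 1.8 and build rn4, without roles or order; parameters, pooling, strand and duplicate handling are not given in the sources used here. As values, the deposited peak score and the deposited summit signal were used as given, and 0 columns of values were left out. Peaks and summits were joined by name, and starts were counted from 1. Gaps run from the end of a peak to the start of the next, and windows of 1 Mb place a peak by its summit. With 1 list and no replicate there is no test between groups: correlations are Spearman's rank correlation without p, and shares of peaks carry Wilson 95% intervals. Regions named in the text are the top score of each chromosome, the 3 widest, the 3 tallest (ties by score), the 3 highest scores under a height of 15, the 3 lowest scores in the top 1% of heights, and the 5 chains with the most peaks, densest windows and longest gaps. The peaks and rules were chosen with earlier results of these data known. The code was tested on simulated lists. Versions were Python 3.11.15, matplotlib 3.10.9, pandas 2.3.3, scipy 1.17.1 and numpy 2.4.6.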

Additional observations from a re-analysis of the deposited data

How the results depend on the processing

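Of the 27 alternatives tried, 22 moved a value beyond its interval (a count by over 1.5 times). No correlation changed sign under its alternatives. The counts, gaps, shares and the density ratio have no direction that could change. These include both alternatives for chromosome density, which has no interval, so that any change counted. A score of at least 100 left 38392 peaks and one of at least 200 left 20458. Score and width correlated at 0.576 below a score of 3100, 0.578 up to 2000 bp and 0.595 by Pearson's r on log10 values. Score and height gave 0.641 below 3100 and 0.639 by Pearson's r on log10 values. Width and height gave 0.569 with heights under 95% of the largest and 0.564 up to 2000 bp. The intervals of these correlations take peaks as independent, although neighbouring peaks may lie on 1 transcript. A small move beyond them therefore carries little weight. Summits between 33.3% and 66.7% of the width were 61.4% with scores of at least 200 and 53.3% in peaks wider than 500 bp. The median gap was 13232 bp from summit to summit and 21276 bp with scores of at least 100. Peaks with a neighbour were 14.8% within 500 bp, 49.8% within 5000 bp and 17.2% within 1000 bp with scores of at least 100. The densest 10% of windows held 26.9% of peaks with windows of 0.5 Mb, 26.0% with scores of at least 100 and 24.1% with peaks within 1000 bp joined. The interval of this share does not measure its error, so a move beyond it carries little weight. Density on chromosome 12 over X became 4.19 with scores of at least 100 and 3.87 with peaks within 1000 bp joined. The likeness of neighbouring heights within 1000 bp, a result and alternatives chosen after seeing the data, was 0.467 in all and 0.365 with both heights below 100. No paired analysis was possible because each condition is represented by 1 list, in which replicates are not told apart.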

Other observations

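Repeated distances between summits, as in the chain on chromosome 1, were looked for in all 390 chains of at least 6 peaks with gaps of up to 5000 bp, a search made after that chain had been seen. Counting distances within 5 bp of each other, 2 chains had 3 alike, namely that on chromosome 1 and the 36 peaks at chrX:13516954-13568013. On chromosome 1 the alike distances were 1046 to 1051 bp between successive summits and 2161 to 2166 bp to the next but one. On chromosome X they were 970 to 975 bp and 1798 to 1803 bp, out of 35 and 34 distances, so repeats there were a smaller part of the chain. At most 2 distances were alike in the other chains. The tallest summits of the chains on chromosomes 1 and X were 13 and 30, against a median of 18 and an upper quartile of 39 in the whole list. Whether the underlying sequence is repeated there was not tested.

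Summits leaned little toward the nearest neighbouring peak. With a neighbour within 50 bp, 49.1% of summits lay on its side of the peak (Wilson interval 46.9 to 51.3%, 1933 peaks), and with one 500 to 1000 bp away 52.1% did (interval 50.7 to 53.6%, 4783 peaks).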
